A study of Mus musculus with 7 samples.

Results

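The Trps1 locus was taken as the stretch of chromosome 15 from 50 to 51.30 Mb of the mouse build mm9, and its members are all peaks whose midpoint lies there. Of 82921 peaks in 3 lists, 109 were members. They comprised 69 of 33915 limb Shox2 peaks, 30 of 33915 limb Pbx peaks and 10 of 15091 palate Shox2 positions. A further list names the limb Shox2 peaks that lie on Pbx, and 31 of its 8999 regions fell in the window. Each of these 31 repeats a limb Shox2 peak and is counted once here. The window was chosen by its number of limb Shox2 peaks on Pbx in these same lists, so the numbers of peaks and of shared peaks in it are given as a description, with no test.

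Embryonic mouse tissue, freshly dissected at E12.5 (embryonic day), was studied by chromatin immunoprecipitation with sequencing (ChIP-seq). The groups used were the limb and the palate of animals labelled Shox2-HA, in which Shox2 carries an HA tag and was precipitated with an antibody against HA, and the limb, precipitated with an antibody against Pbx. The sources used here do not give the genotype of the embryos for the Pbx library, the number of tagged alleles or the number of embryos pooled. Each group had 1 library, so no value has a replicate error, and the lists give positions alone, so the depth is unknown. No Shox2 peak was compared here with the untagged control or with input, as neither was used. Whether the authors called the peaks against either is not given in the sources used here. In whole tissue, binding in more cells and stronger binding per cell cannot be told apart.

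Trps1 encodes an atypical GATA-type zinc finger protein that acts mainly as a repressor of transcription. It is expressed in developing cartilage, joints and hair follicles, where it takes part in the control of chondrocyte proliferation and maturation, and mutations of the human gene cause trichorhinophalangeal syndrome, with short and misshapen digits. Shox2 is a homeodomain factor required for the proximal limb skeleton and for the palate. Pbx proteins are homeodomain factors of the TALE class that form complexes on DNA with Hox and other homeodomain proteins. Trps1 lies near 50.49 to 50.72 Mb of mm9, a placing that is given to 10 kb and was not checked against an mm9 annotation. As background, the gene is read from the reverse strand, so its start is at the upper end, near 50.72 Mb. In the RefSeq table of GRCm38, its nearest protein-coding neighbours are Csmd3 below it and Eif3h above it. Only pseudogenes and non-coding RNA genes stand between them, among them Mir1907 inside the span of Trps1 and the lncRNA genes Gm34446 and Gm19303 between Trps1 and Eif3h. No GRCm38 position was carried over to mm9.

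Limb Shox2 peaks were dense in the window as a whole, though unevenly spread. They lay at 53.1 per Mb, against 12.8 per Mb over the genome, 4.14 times as many. Limb Pbx peaks lay at 23.1 per Mb, against 12.8 over the genome, and palate Shox2 positions at 7.69 per Mb, against 5.7. Among 2022 other windows of the same length, 11 had more limb Shox2 peaks, 322 had more Pbx peaks and 554 had more palate positions. The window was thus near the top of the genome for Shox2 in limb, and much less so for Pbx in limb and Shox2 in palate.

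**Figure D1:**
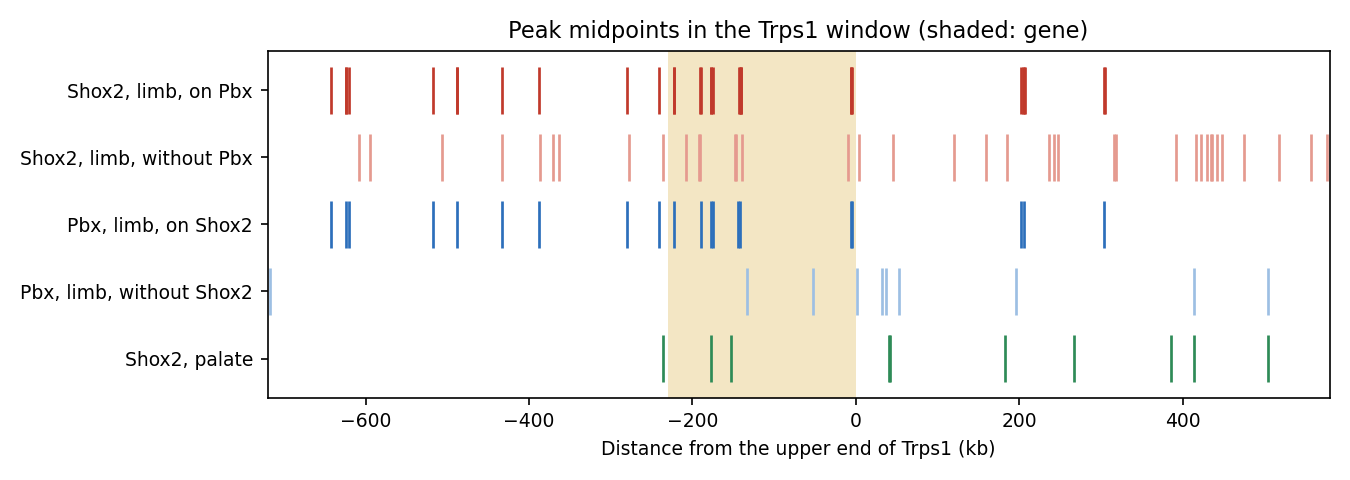
Midpoints of the 109 peaks by distance in kb from the upper end of Trps1 (the end near its start), with 1 row for each kind of peak and the gene shaded. Limb Shox2 peaks on Pbx crowd into the lower part of the gene and stop at about 304.4 kb above it, while limb Shox2 peaks without Pbx go on to the window's edge.

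The peaks themselves were ordinary members of their lists. Limb Shox2 peaks of the window had a median width of 263 bp, against 261 bp in the rest of the list, and ranged from 170 to 1045 bp. Their median place was 52.2% of the way down the list, with 10 of 69 in its first 10% and 33 of 69 in its first 50%. Those on Pbx were narrower and lower in the list than such peaks elsewhere. Their medians were 283 bp and 43.2%, against 326 bp and 33.6%. Those without Pbx had medians of 234 bp and 53.4%, against 245 bp and 55.0%. Pbx peaks had a median width of 959 bp, against 897 bp in the rest of the list, and a median place of 42.6%. The files do not say how they are ordered. Widths of the limb peaks fall from top to bottom, and neighbouring lines run in genomic order within 2628 ascending runs of the limb Shox2 list, 7754 of the Pbx list and 2194 of the palate list. Lines within a run were treated as tied, and 16 of the 69 limb Shox2 peaks shared 7 such runs with another member, so a line number is good only to within its run.

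Shox2 and Pbx met often at this locus. Of the 69 limb Shox2 peaks, 31 overlapped a limb Pbx peak (44.9%), where 26.5% of all limb Shox2 peaks did. From the Pbx side, 20 of 30 peaks overlapped limb Shox2 (66.7%), where 23.4% of all Pbx peaks did. The window was chosen by the number of these shared peaks. That choice favoured high shares on both sides without fixing them, and no interval is given for the shares or for their parts. Split by place in the list, these same selected peaks give no further support. In the first 50% of the limb Shox2 list, 18 of 33 peaks lay on Pbx (54.5%), against 34.6% in the rest of the genome. In the last 50%, 13 of 36 did (36.1%), against 18.4%.

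With narrower peaks, the share of limb Shox2 peaks came near that of the whole list, while the share of Pbx peaks stayed well above it. With every peak set to 200 bp around its centre, 14 of 69 limb Shox2 peaks (20.3%) lay on Pbx, against 16.4% of the whole list. On the Pbx side, 14 of 30 (46.7%) still met Shox2, against 16.3%. In the window the centres of the peaks of a pair stood farther apart at the median than elsewhere. The median was 244 bp (quartiles 92 and 364.5 bp), against 141.5 bp (63 and 288 bp) in the rest of the list. Of the 31 pairs, 20 lay on the 9 Pbx peaks that met at least 2 Shox2 peaks. Shox2 peaks that share a Pbx peak cannot all lie at its centre. Distances of these 20 pairs ran from 1 to 1353 bp, against 8.5 to 341.5 bp on the 11 Pbx peaks with 1 Shox2 peak. Such pairs were not set apart in the rest of the list. Of the 31 Shox2 peaks on Pbx, 28 lay wholly inside the Pbx peak, as did 7842 of 8968 in the rest of the list, a similar share.

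Several limb Shox2 peaks often shared 1 Pbx peak. Of the 20 Pbx peaks that met Shox2, 11 met 1 Shox2 peak, 7 met 2 and 2 met 3. Thus 9 of 20 met at least 2 (45.0%), where 12.1% of all such Pbx peaks did. These 9 were wider, with a median of 1463 bp, against 925 bp for the 11 with 1 Shox2 peak and 762 bp for the 10 with none. A wide Pbx peak has more room for Shox2 peaks, so width and number are not separate measures. The window was chosen by its number of limb Shox2 peaks on Pbx. Several on 1 Pbx peak raise that number, so the choice favoured a high share with at least 2. When limb Shox2 peaks within 200 bp of each other were first merged, 4 of 20 Pbx peaks met at least 2 (20%), against 5.15% of all.

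Limb Shox2 peaks also stood close together by themselves. Of the 69, 31 had another limb Shox2 peak within 1 kb (44.9%), where 19.5% of all limb Shox2 peaks did. Of those 31, 22 lay on Pbx (71.0%), against 36.6% of such peaks in the rest of the genome. Of the 38 with no neighbour that close, 9 lay on Pbx (23.7%), against 24.1% elsewhere. Shox2 peaks that stood alone at this locus thus met Pbx about as often as such peaks elsewhere. Peaks that share a Pbx peak tend to be close, which ties these counts to each other. It ties them to the choice of the window as well. Limb Shox2 peaks were also dense in the window, which by itself brings neighbours closer.

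**Figure D2:**
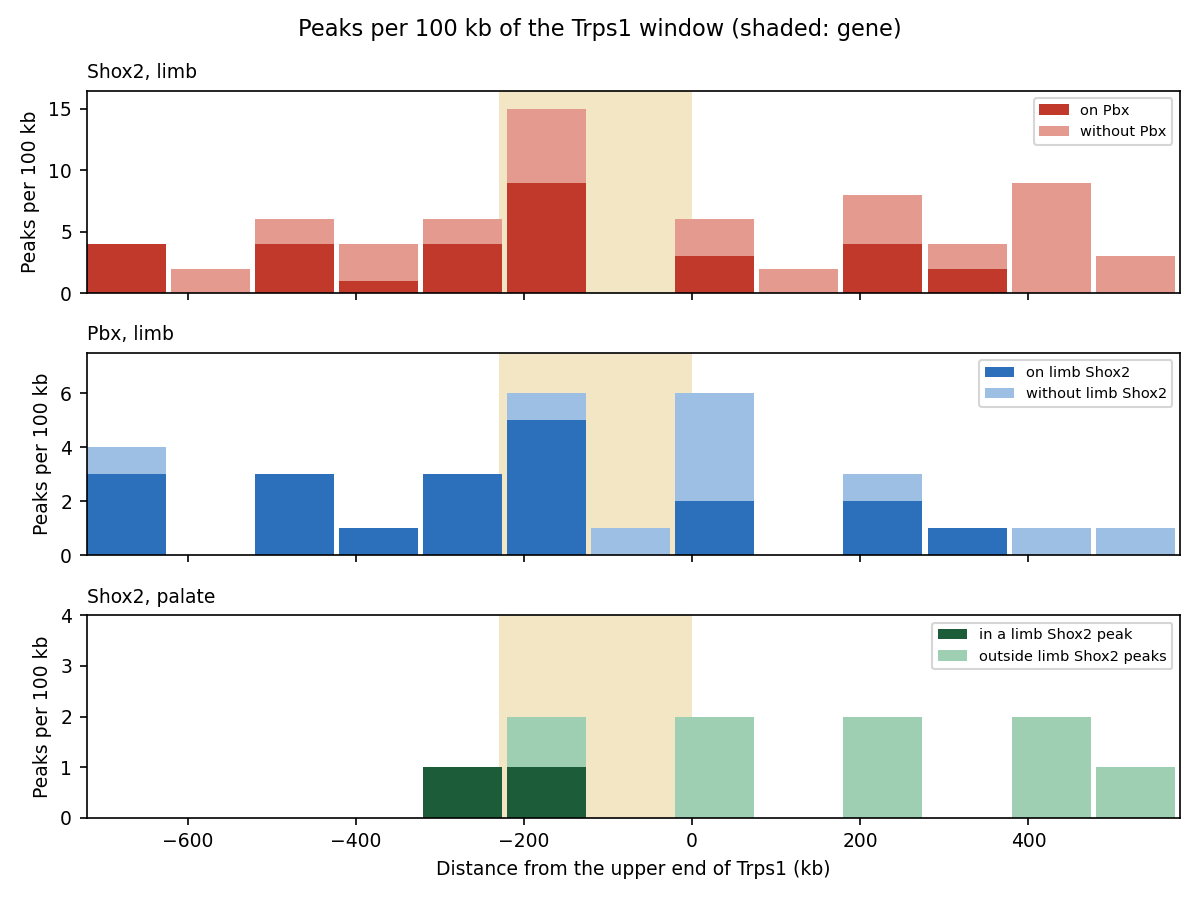
Peaks per 100 kb along the window by distance in kb from the upper end of Trps1, with limb Shox2, limb Pbx and palate Shox2 in panels of their own and the gene shaded. Dark bars count peaks that meet another list (Pbx for limb Shox2, limb Shox2 for the other panels) and light bars the rest. The bar of 15 limb Shox2 peaks stands in the lower part of the gene.

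Within the window, the gene was the densest part for both limb lists. Limb Shox2 peaks lay at 40.8 per Mb below the gene, 91.3 per Mb in the gene and 48.3 per Mb above it. Pbx peaks lay at 20.4, 43.5 and 17.2 per Mb in these 3 parts, with 10 peaks in each. Palate Shox2 positions lay at 2.04, 8.7 and 12.1 per Mb. These rest on 1 position below the gene, 2 in it and 7 above it, too few to order the parts. The share of limb Shox2 peaks on Pbx was 11 of 20 below the gene (55.0%), 14 of 21 in the gene (66.7%) and 6 of 28 above it (21.4%). Of the Pbx peaks, 9 of 10 below the gene, 8 of 10 in it and 3 of 10 above it met limb Shox2. Above the gene these shares were near those of the whole lists, 26.5% for limb Shox2 on Pbx and 23.4% for Pbx on limb Shox2, while below and in the gene both were higher. Shared peaks above the gene still lay at 10.3 per Mb, against 3.4 per Mb over the genome, and 7 of the 10 Pbx peaks without Shox2 lay there. With every peak set to 200 bp, 7 of 20, 7 of 21 and 0 of 28 limb Shox2 peaks lay on Pbx, where 16.4% of the whole list did. Above the gene the share at that setting was thus below that of the whole list. A count of 0 among 28 peaks does not show that the share is 0. The ends of the gene are given only to 10 kb, which is their rounding and not a known error. Moving both by that much gave 56.2 to 60.9% in the gene and 22.2 to 29.0% above it.

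Inside the gene, limb Shox2 peaks formed 2 groups. The lower group held 17 peaks within 83.4 kb (chr15:50497079-50580486), toward the 3′ end of the gene. Of these, 11 lay on 6 Pbx peaks, and 14 had another limb Shox2 peak within 1 kb. No limb Shox2 peak was listed in the next 129 kb, where Pbx had 2 peaks of 691 and 770 bp. The upper group held 4 peaks within 5.77 kb (chr15:50709811-50715582), near the start of the gene, of which 3 lay on 2 Pbx peaks.

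**Figure D3:**
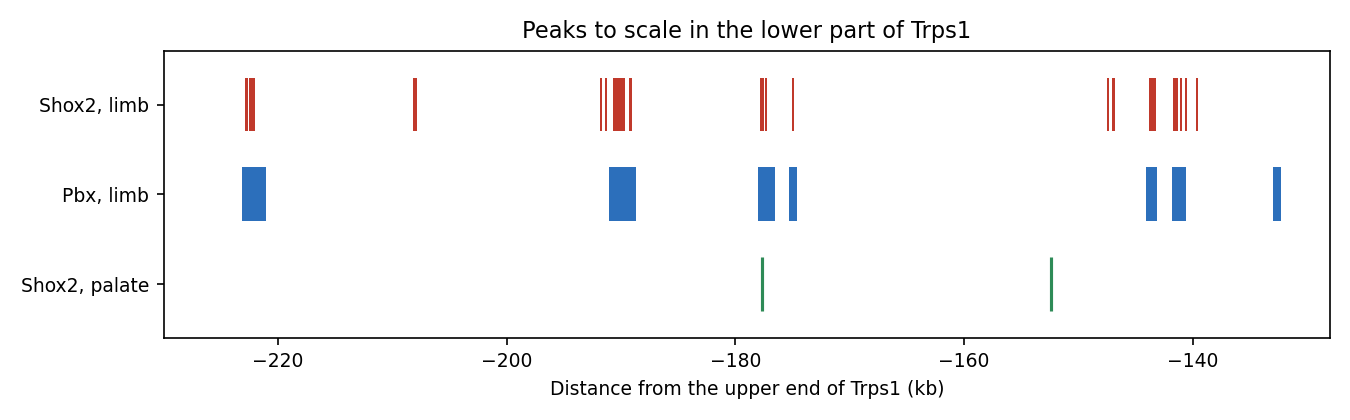
Peaks of the lower part of Trps1 drawn to scale by distance in kb from the upper end of the gene, with limb Shox2 and limb Pbx as boxes of their listed width and palate Shox2 positions of 1 bp as lines. Several limb Shox2 peaks stand inside or beside the same Pbx peak in 4 places, and 1 palate position falls in a place that holds both.

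In the lower group, 2 places were high in both limb lists. The Shox2 peak at chr15:50529325-50530369 was the widest of the window, with 1045 bp, and stood at line 262 of 33915. The Pbx peak around it, chr15:50528974-50531298, was 2325 bp wide and stood first among the members, at line 417 of 33915. It held a further Shox2 peak of 247 bp, and 2 more Shox2 peaks of 187 and 241 bp stood just below it. The next such place was chr15:50496866-50498968, a Pbx peak of 2103 bp at line 857. It held a Shox2 peak of 474 bp at line 687 and another of 320 bp at line 25886. A high-placed and a low-placed Shox2 peak thus lay side by side within 1 Pbx peak. A place lower in the Pbx list was chr15:50578235-50579432, a Pbx peak of 1198 bp at line 19660 that met 3 Shox2 peaks, of 505, 172 and 220 bp, at lines 4780, 20530 and 33545.

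At the start of the gene, Pbx and Shox2 differed. The Pbx peak at chr15:50719333-50722485 covered the 50.72 Mb end of the gene as it is placed here. It was 3153 bp wide, the second widest Pbx peak of the window, and stood at line 4690. No limb Shox2 peak met it. The nearest was a Shox2 peak of 317 bp at chr15:50723720-50724036, low in the list at line 30846. Below this Pbx peak, 2 others met Shox2. The Pbx peak at chr15:50714981-50716010 (line 5170) held a Shox2 peak of 258 bp at line 6025, and that at chr15:50713644-50714357 met Shox2 peaks of 329 and 203 bp. Above the start, the next 3 Pbx peaks, of 754, 1403 and 627 bp, met no limb Shox2 peak. Whether the wide Pbx peak lies on the promoter itself could not be settled with a placing to 10 kb. The palate list had no position nearer to that end of the gene than 41.0 kb, and the nearest to its lower end was 6.34 kb away.

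Below the gene, toward Csmd3, 2 of the window's leading Shox2 peaks differed in Pbx. The member highest in the limb Shox2 list, chr15:50348634-50349643 at line 234, was 1010 bp wide and met no Pbx peak. The peak at chr15:50332256-50332692, at line 298, was 437 bp wide and lay on a Pbx peak of 598 bp, the narrowest Pbx peak of the window, at line 27198. A high place in the Shox2 list thus went with no Pbx peak in the first case and with a low-placed one in the second. Elsewhere below the gene, Shox2 and Pbx met at small scattered places. The Pbx peak at chr15:50231042-50232504, at line 4682, held 2 Shox2 peaks of 270 and 266 bp, and chr15:50095870-50096572 met 2 of 271 and 308 bp.

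Above the gene, the shared places were few but wide. The widest Pbx peak of the window, chr15:50924040-50927451, was 3412 bp wide at line 3786, and met 3 Shox2 peaks of 174, 755 and 730 bp. The peaks of 755 and 730 bp stood at lines 11267 and 3960. A neighbouring Pbx peak of 1158 bp held a Shox2 peak of 290 bp at line 3437. The last shared place going up was chr15:51023452-51024826, a Pbx peak of 1375 bp at line 3866, with a Shox2 peak of 769 bp at line 1274 and another of 183 bp. These are the upper 2 clusters of shared peaks in the map of midpoints.

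Beyond that place, limb Shox2 went on without Pbx. The remaining 275 kb of the window, a stretch picked out after its values were seen, held 14 limb Shox2 peaks, 50.9 per Mb, none of them on Pbx. The stretch begins where the last shared peak ends, so that 0 is fixed by its definition. By place in the list, 7 of the 14 were in its first 50% and 2 in its first 10%. They included chr15:51154798-51155326 at line 1640 and chr15:51135479-51135938 at line 3073. The stretch had 2 Pbx peaks, of 614 and 1206 bp, and each held a palate Shox2 position and no limb Shox2 peak.

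**Figure D4:**
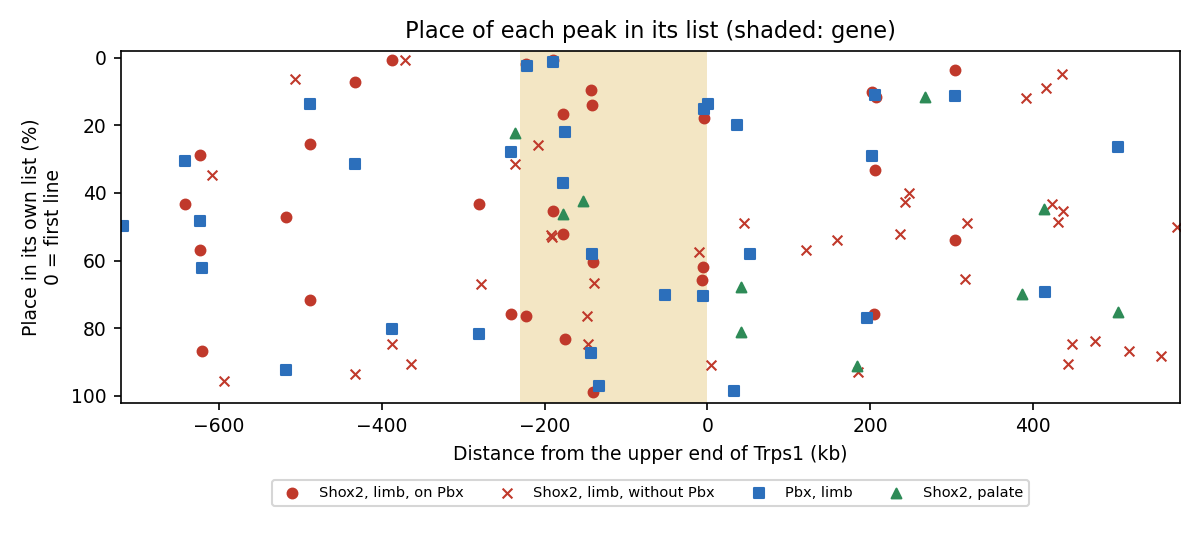
Place of each of the 109 peaks in its own list (0% is the first line) by distance in kb from the upper end of Trps1, with the gene shaded. Peaks of the first 10% occur below, in and above the gene, and peaks near the window's upper edge include some of the first 10% without Pbx.

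Palate Shox2 positions met limb peaks at shares that 10 positions cannot set apart from those of the whole list. Of the 10 palate Shox2 positions, 2 lay in a limb Shox2 peak (20%, interval 2.52 to 55.6%), where 14.2% of all palate positions did. Likewise 3 of 10 lay in a limb Pbx peak (30.0%, interval 6.67 to 65.2%), where 15.6% of all did. Both intervals include the share of the whole list. They are exact binomial intervals of 95% that cover the counting of positions only. With every peak set to 200 bp, 1 of 10 lay in Pbx (10%), against 9.37% of all, and in the first 1 Mb of the window 1 of 7 did (14.3%). Seen from the limb, 2 of 69 Shox2 peaks (2.9%) held a palate position, where 6.28% of all did, and 3 of 30 Pbx peaks (10%), where 6.62% of all did. The other 8 palate positions stood 1565 to 19319 bp from the nearest limb Shox2 peak, with a median of 4382.5 bp.

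All 3 lists met at 1 site, in the lower part of the gene, where 2.3% of all limb Shox2 peaks meet both other lists. The palate position 50542346 (line 6987 of 15091) lay in the limb Shox2 peak chr15:50542127-50542502 (376 bp, line 5702) and in the Pbx peak chr15:50541939-50543465 (1527 bp, line 12536). None of the 3 stood in the first 10% of its list, and with every peak set to 200 bp they no longer met. The other palate position in a limb Shox2 peak was 50483664, at line 3387, in the 561 bp peak chr15:50483328-50483888 just below the gene, 4380 bp from the nearest Pbx peak. The palate position highest in its list, 50987460 at line 1769, stood alone, 19319 bp from the nearest limb Shox2 peak and 35991 bp from the nearest Pbx peak. The next in the list was 50483664, just described, followed by 50567587 (line 6385), inside the gene and 4960 bp from limb Shox2, and 51133913 (line 6752), in a Pbx peak.

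When all 109 peaks were joined wherever gaps were under 10 kb, they formed 34 clusters. Of these, 12 held 1 peak, and 8 held 5 or more peaks, with 59 of the 109 peaks and 19 of the 31 shared limb Shox2 peaks in them. Limb Shox2 alone made up 12 clusters, Pbx alone 2 and palate Shox2 alone 1, and 6 clusters held all 3 lists. Limb Shox2 also had the most members here, 69, against 30 for Pbx and 10 for palate. No cluster counts of other windows are given, so these numbers only describe the window. The largest by number, 11 peaks within 20.1 kb, stood in the gene (chr15:50567587-50587736) and had 7 limb Shox2, 3 Pbx and 1 palate peak. The longest, 34.6 kb above the gene (chr15:51133722-51168305), had 7 limb Shox2 peaks, 1 Pbx peak and 1 palate position, and no Shox2 peak on Pbx.

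The edges of the window cut differently at its ends. The lowest limb Shox2 peak inside stood 78.1 kb from the lower edge (258 bp, line 14640), and the first outside it was chr15:49896304-49896879 (576 bp, line 6106). The highest limb Shox2 peak inside was 237 bp wide, at line 16961. A limb Shox2 peak of 861 bp at line 539 stood 28 kb outside the upper edge, and it held a palate position that stands at line 167 of that list. For Pbx, the lowest peak inside stood 2.67 kb from the lower edge (1417 bp, line 16868), and the first outside it was 758 bp wide, at line 12685. The highest Pbx peak inside was 75.6 kb from the upper edge (1206 bp, line 8980), and the first outside it was 34.3 kb away (1293 bp, line 3301). The lowest palate position inside stood 484 kb above the lower edge (line 3387), and the first outside 115 kb below it (line 7620). The highest inside was 51224729, at line 11348.

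**Figure D5:**
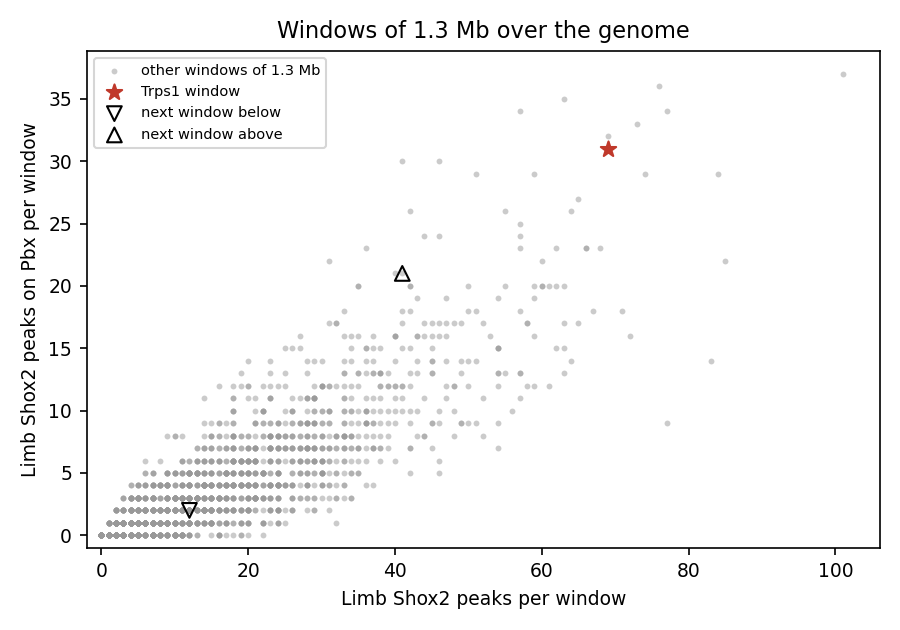
Limb Shox2 peaks on Pbx against all limb Shox2 peaks in windows of 1.3 Mb over the genome (grey points), with the Trps1 window as a star and the windows next to it as triangles. The star, at 69 and 31 peaks, stands among the uppermost points, and both axes count peaks of the same list.

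Next to windows of the same length, limb Shox2 peaks were fewer on both sides, and Pbx peaks only below. The next 1.3 Mb below held 12 limb Shox2 peaks, 2 of them on Pbx, and 7 Pbx peaks. The next 1.3 Mb above held 41 limb Shox2 peaks, 21 of them on Pbx (51.2%), 35 Pbx peaks and 12 palate positions. Shared peaks thus went on beyond the upper edge. By its 31 shared peaks the window ranked 8 among the 2022 others. The 3 others with the most were chromosome 18 from 54.60 to 55.90 Mb with 37 of 101 limb Shox2 peaks on Pbx, chromosome 9 from 87.10 to 88.40 Mb with 36 of 76, and chromosome 5 from 74.10 to 75.40 Mb with 35 of 63. The Trps1 window had fewer palate positions than these, 10, against 30, 18 and 18. Its share of palate positions in limb Shox2 peaks was 2 of 10, against 13 of 30, 7 of 18 and 5 of 18. Among 690 windows with at least 20 limb Shox2 peaks, 56 had a larger share of them on Pbx than the 44.9% seen here, and the median was 25%. No test of these differences was run.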

How the data were processed

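Peak lists of 3 ChIP-seq libraries at E12.5 (Shox2 in limb, Shox2 in palate, Pbx in limb) and the deposited list of co-occupied regions were used. The other 4 libraries were not analysed here. Per the submitters' processing notes, the authors used Bowtie and MACS2 with mm9, with versions, cutoffs and control not given in the sources used here. Deposited lists give a chromosome, a start and an end, with no score or p-value, so depth is unknown. Palate positions are 1 bp wide, limb peaks at least 170 bp, and a wide peak meets others more easily.

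Peaks with a midpoint in the window were kept. Overlap meant at least 1 bp. All 8999 co-occupied regions were limb Shox2 peaks on Pbx by that rule. Genome densities are per Mb of 2648.16 Mb, the sum of the highest positions per chromosome. Intervals, given for palate positions alone, are exact binomial (95%). Starts are printed counting from 1. The peaks named are the 5 first and 3 widest of each list, those nearest the gene's ends and the window's edges, and sites of all 3 lists. Members that share a Pbx peak, and the stretches described, were added after their values were seen. The window, the lists and the measures were chosen with earlier results of these data known. No test was run. Overlaps were tested on simulated data. Python 3.11.15, NumPy 2.4.6, SciPy 1.17.1 and matplotlib 3.10.9 were used.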

Additional observations from a re-analysis of the deposited data

How the results depend on the processing

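Of 66 alternatives, 53 left a value within its interval or within 1.5 times. That number is no measure of how firm the results are, because some alternatives could not move a value. Taking members by any overlap with the window gave the same counts, and the palate list cut to its own length was unchanged. Intervals of the palate shares were wide. Those of the limb shares, which were selected, served only to sort the alternatives. Setting every peak to 200 bp moved the share of limb Shox2 peaks on Pbx to 20.3%, that of Pbx peaks on Shox2 to 46.7% and the sites of all 3 lists to 0. It also moved the share in the gene to 33.3% and above the gene to 0%. The first 50% of each list gave 25.4 limb Shox2, 13.1 Pbx and 3.85 palate peaks per Mb (3.96, 2.04 and 1.35 times the genome at that setting) and a rank of 19. Limb lists cut to the palate list's length gave 20.8 Shox2 and 11.5 Pbx peaks per Mb (3.64 and 2.02 times). Fewer peaks lower these densities by construction. Gaps of 20 kb gave 21 clusters. Over the other settings the share of limb Shox2 peaks on Pbx ran from 37.1 to 54.7%. The lowest came with the widest 50% of each limb list, and the highest with the window cut to 1 Mb. Alternatives for single parts, near neighbours and merged Shox2 peaks were chosen after seeing the data. No paired analysis was possible because there is 1 library in each group, and none could be left out. Promoter sequence and motifs were not analysed here. An unlisted site may still lie below the cutoff of its list.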
